A study of Mus musculus with 16 samples.

Results

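A set of 5507 genes expressed in both liver and quadriceps muscle was compared for how their transcripts differed between wild-type and Klf15-null mice in the one tissue and in the other. Members were chosen by level alone: the mean deposited signal of the 4 wild-type arrays had to be at least 50 in liver and at least 50 in quadriceps, taking for each gene the brightest probe set that was paired with 1 gene symbol. They were 5507 of 12393 named genes on the array. Wild-type level therefore chose them and is given only as a description, while the null arrays entered only through the choice of the brightest probe set, which was made over all 16 arrays. Genes just inside the limit were Lima1 (290.5 in liver, 50 in quadriceps), Vti1a (50.05 and 93.4) and Flt1 (50.05 and 200), and genes just outside were Zc3h10 (49.975 and 91.05), Pias3 (49.9 and 63.05) and Mpeg1 (674 and 49.9). Restricting the comparison to such genes meant that a fall could be seen on either side. Its size is bounded for genes near the limit, since the scale used compresses low signals, so a fall equal to a steep one elsewhere may not show.

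RNA came from flash-frozen liver and quadriceps of female mice aged 4 to 5 months that had been fasted for 18 h, either wild type or Klf15-null. Each of the 4 groups (wild-type liver, null liver, wild-type quadriceps, null quadriceps) held 4 samples on 1 Affymetrix Mouse430A_2 array each, 16 arrays in all, with wild-type samples numbered 1 to 4 and null samples 5 to 8. All animals shared sex, age range and fast, so no fed state was compared. The labels say nothing more of the null allele, of the strain or of whether the tissues came from the same animals, and since they do not say that samples are separate animals, each p-value is set against a spread between samples that may be technical.

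Klf15 encodes a Kruppel-like factor, one of a family of zinc finger transcription factors that bind GC-rich and CACCC-type DNA elements. It is known for driving genes of amino acid breakdown in liver and muscle during fasting, when muscle releases amino acids and the liver uses their carbon for glucose and their nitrogen for urea. In muscle it is also known as a regulator of lipid use. The comparison asked for which genes, among those that both tissues express, its loss was followed by a different change in each.

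Signals below are quantile normalized within each tissue separately, so they are compared between genotypes and not between tissues. An effect is the mean of null samples minus that of wild-type samples as log2(signal + 16), which understates changes of dim genes. A difference between tissues is the liver effect minus the quadriceps effect, so it is positive where the liver effect is the higher. Errors are standard errors (SE) from limma, and adjusted p-values were computed over the 8985 genes fitted, with a threshold of 0.05. Each gene had 1 spread, shared by both tissues, so noise of the quadriceps arrays also entered the errors of liver effects. The mean Spearman correlation of an array with its group was 0.955 to 0.959 in liver and 0.890 to 0.919 in null quadriceps. A gene with no call in a tissue is therefore not shown to be unchanged there.

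The tissue labels matched their markers. Summed signals of 9 measured hepatocyte markers ran from 73315 to 76598 in liver and from 174 to 353 in quadriceps, and those of 10 myofibre markers from 106073 to 110131 in quadriceps and from 76.9 to 132 in liver, where all 10 had means under 25. One array stood apart: null quadriceps 8 had a deposited median signal of 15.6, against 32.5 to 59.2 on the other quadriceps arrays, and was scanned on a later day, so the counts are also given without it. The ratio of the 3' to the 5' Gapdh probe set, which tracks RNA integrity, was 1.09 on it, 0.785 to 0.790 on null quadriceps 5 to 7 and 0.855 to 0.937 on wild-type quadriceps. In both tissues every wild-type array was washed on one fluidics station and every null array on another, and these 2 factors cannot be told apart within a tissue. Summed adipocyte markers were lower on every null quadriceps array (3853 to 4443) than on every wild-type one (4638 to 6238), and summed endothelial markers were higher on every null liver array (703 to 787) than on every wild-type one (590 to 671). Taken singly, 0 of 6 adipocyte markers passed the threshold in quadriceps with all arrays, and 3 were lower without null quadriceps 8. In liver 0 of 8 endothelial markers passed. In bulk tissue, fewer cells of a type and less RNA per cell cannot be told apart.

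Klf15 was examined first, as a check of the labels. In liver its signals were 961, 1240, 1240 and 919 in wild type and 194, 157, 140 and 166 in null samples. In quadriceps they were 614, 433, 605 and 682 in wild type and 13.7, 80.4, 84.1 and 44.6 in null samples. The null and wild-type ranges were apart in each tissue. The effects were -2.61 in liver and -3.20 in quadriceps, and their difference of 0.59 (SE 0.38, 95% confidence interval -0.22 to 1.39, adjusted p = 0.43) did not pass the threshold. The position of these probes relative to the deletion was not known, so the residual null signal was not read.

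The difference between tissues passed the threshold for 229 co-expressed genes. It was positive for 158 of them (2.87% of members, against 2.45% of all genes fitted) and negative for 71 (1.29%, against 1.54%), together 4.16% of members against 3.98% of all genes fitted, so shares lay near the background. An unadjusted p under 0.05 was found for 1123 members, but this was not counted over all genes fitted, so nothing is read from it. The called difference reached 1 log2 unit in 31 positive and 24 negative cases. Without null quadriceps 8 the counts were 474 and 219 (backgrounds 6.51% and 3.75%, 10.3% in all), and all 229 remained called in the same direction. Leaving out any one of liver wild type 1 to 4, null liver 5, 7 or 8, or wild-type quadriceps 1 to 3 in turn also moved a count by over 1.5 times, and over all such fits the positive count ran from 94 to 474 and the negative count from 43 to 219. Median scaling left 76 and 16 calls, so the share of positive calls was 69.0% with quantile normalization and 82.6% with median scaling, and 98.9% with no normalization. The median difference of all genes fitted was 0.07 with quantile normalization, 0.16 with median scaling and 0.47 with none, and changes are best read against that shift.

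**Figure D1:**
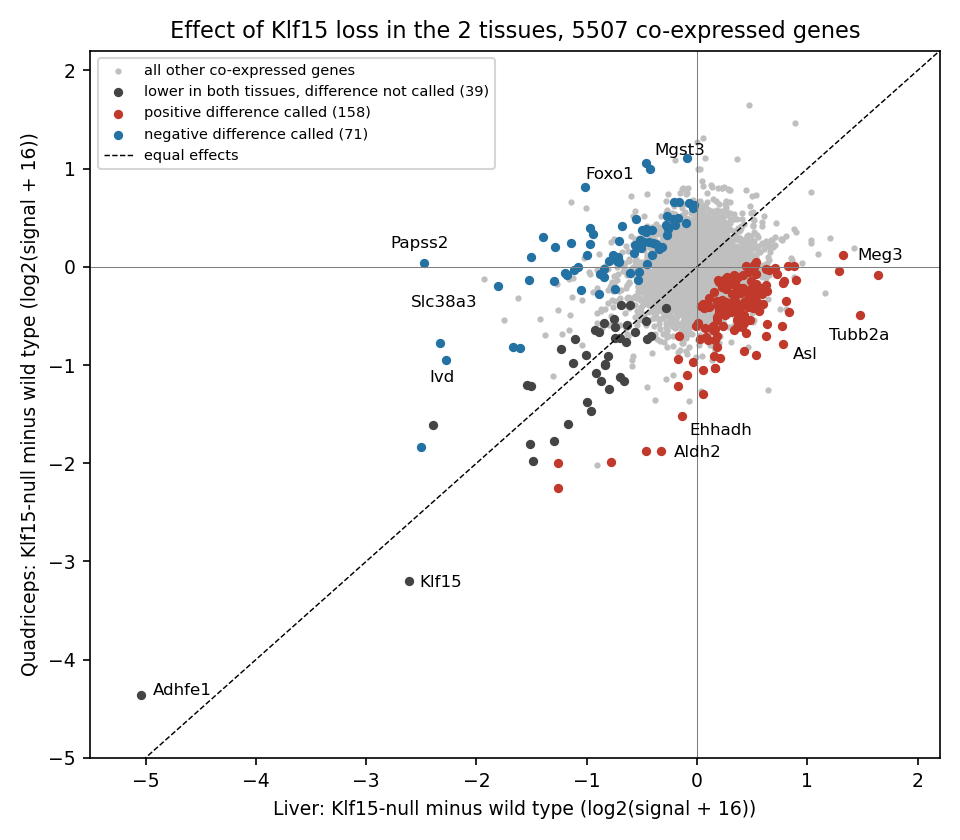
Each point is 1 of 5507 co-expressed genes, with the liver effect of Klf15 loss on the horizontal axis and the quadriceps effect on the vertical axis, both as log2(signal + 16) of null minus wild-type samples. Genes with a positive called difference (158, red) lie below the dashed line of equal effects, and genes with a negative one (71, blue) lie above it. Dark grey marks 39 genes that fell in both tissues without a called difference, down to Adhfe1. They were selected for lacking that call, so their place near the line is not a result.

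The calls fell into a few patterns. Of the 158 positive differences, 61 belonged to genes that were higher in null liver with no call in quadriceps, 50 to genes that fell in quadriceps with no call in liver, 5 to genes that rose in liver and fell in quadriceps, 4 to genes that fell in both but further in quadriceps, and 38 to genes with no call in either tissue alone. Of the 71 negative differences, 42 belonged to genes that fell in liver with no call in quadriceps, 12 to genes that rose in quadriceps with no call in liver, 5 to genes that fell in both but further in liver, and 12 to genes with no call in either. Without null quadriceps 8, genes that fell in quadriceps with no call in liver became the most frequent positive pattern, with 270 genes. Genes that rose in quadriceps with no call in liver became the most frequent negative one, with 121. Quadriceps calls over all genes fitted went from 3.16% to 14.2% when that array was left out. The patterns were not counted over all genes fitted, so no trait of the members is read from their order. Taken by tissue, 160 members were higher and 202 lower in null liver (backgrounds 2.68% and 3.45%, 6.13% in all), and 50 were higher and 180 lower in null quadriceps (backgrounds 0.79% and 2.37%, 3.16% in all). Without null quadriceps 8 the quadriceps counts were 294 and 714 (backgrounds 4.45% and 9.76%, 14.2% in all), and the liver counts, set against the spread of that fit, were 239 and 269 (backgrounds 3.75% and 4.31%, 8.06% in all). Leaving out null liver 7 took the 362 liver calls to 236, and leaving out wild-type quadriceps 1, 2 or 3 took the 230 quadriceps calls to 139, 117 and 127.

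Sequence upstream of the start site is shown for 1 gene of each pattern named below, since Kruppel-like factors are known to bind CACCC-type elements. The most frequent positive pattern with all arrays, higher in null liver with no call in quadriceps, is not among them. Each sequence is the 250 bases before the first start site listed by RefSeq (GRCm38.p6), written 5' to 3' on the gene's strand. Capitals mark CACCC or its reverse complement GGGTG. Papss2 (chr19:32595465-32595714, plus strand) fell in liver with no call in quadriceps, Ivd (chr2:118861744-118861993, plus strand) fell in both and further in liver, Ehhadh (chr16:21787835-21788084, minus strand) fell in quadriceps with no call in liver, and Hadhb (chr5:30155003-30155252, plus strand) rose in liver and fell in quadriceps.
Papss2: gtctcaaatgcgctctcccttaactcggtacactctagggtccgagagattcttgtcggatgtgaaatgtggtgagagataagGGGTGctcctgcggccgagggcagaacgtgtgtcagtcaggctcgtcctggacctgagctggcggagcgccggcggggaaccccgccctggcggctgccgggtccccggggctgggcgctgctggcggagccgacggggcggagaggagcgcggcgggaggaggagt
Ivd: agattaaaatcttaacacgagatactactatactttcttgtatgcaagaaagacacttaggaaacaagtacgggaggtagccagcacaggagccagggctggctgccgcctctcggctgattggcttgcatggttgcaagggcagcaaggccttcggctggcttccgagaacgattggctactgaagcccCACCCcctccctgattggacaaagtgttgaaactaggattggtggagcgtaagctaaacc
Ehhadh: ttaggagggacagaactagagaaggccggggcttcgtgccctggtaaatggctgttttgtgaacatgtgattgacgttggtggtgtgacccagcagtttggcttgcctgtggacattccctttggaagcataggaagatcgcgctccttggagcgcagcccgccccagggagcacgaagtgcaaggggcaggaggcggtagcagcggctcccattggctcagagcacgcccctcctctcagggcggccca
Hadhb: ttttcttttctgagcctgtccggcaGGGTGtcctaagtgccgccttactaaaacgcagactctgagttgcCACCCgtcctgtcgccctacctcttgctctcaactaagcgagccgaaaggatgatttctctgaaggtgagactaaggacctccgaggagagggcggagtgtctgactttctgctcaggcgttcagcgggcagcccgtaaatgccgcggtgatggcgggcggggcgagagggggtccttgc
A match was present in Papss2, Ivd and Hadhb, and none of these letters was in the Ehhadh window. Of 27025 genes with a promoter in the table, 51.3% held CACCC or GGGTG in this window, as did 54.9% of the 4581 co-expressed genes that matched it. The share was 56.2% of 128 matched genes with a positive difference, 66.1% of 56 with a negative one and 78.8% of 33 of the 48 genes that fell in both tissues. A match is a description of these letters and not a bound site.

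Falls shared by both tissues were the most frequent joint change. Of 56 members past the threshold in both tissues, 48 were lower in both (background 0.556% of all genes fitted), 3 were higher in both and 5 moved in opposite directions. Without null quadriceps 8 these counts were 92 (background 1.1%), 22 and 34, with all 48 shared falls among the 92. For 39 of the 48 the difference between tissues was not called, with a median of 0.10, a range from -0.78 to 0.59 and a median half-width of the 95% interval of 0.41, so differences of that size were not resolved. Of the shared falls, 12 were at least 2-fold in both tissues.

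The steepest shared fall was in Adhfe1, the mitochondrial dehydrogenase that oxidises 4-hydroxybutyrate. Its signals were 1040, 1050, 756 and 1150 in wild-type liver against 10.7, 38, 4.1 and 13.4 in null liver, and 523, 302, 420 and 378 in wild-type quadriceps against 3.03, 5.33, 1.47 and 7.02 in null quadriceps. The null signals of both tissues were near the bottom of the scale, so neither effect (-5.04 in liver, -4.36 in quadriceps) gives the full fold, and the sign of their difference (-0.68, adjusted p = 0.275) turned with the pseudocount. Prodh, which starts proline breakdown, fell in liver from 800 to 896 in wild type to 126 to 180. In quadriceps it fell from 43.1 to 64.2 in wild type to 2.93 to 27, near the bottom of the scale. Its difference (-0.78, SE 0.29, adjusted p = 0.151) also turned in sign with the pseudocount. Kyat3, a kynurenine aminotransferase, fell by 1.51 in liver and by 1.21 in quadriceps. Klf10, another Kruppel-like factor, had effects of -1.51 in liver (wild type 130, 281, 134 and 235, null 55, 70.1, 52 and 43) and -1.80 in quadriceps (wild type 370, 312, 215 and 443, null 67.7, 50.7, 91 and 137), and its groups did not overlap in either tissue. Selenbp1, a methanethiol oxidase, fell in both, with effects of -1.49 and -1.98. In the Kruppel-like factor list, Klf15 and Klf10 were the members past the threshold in a tissue, and none of the 8 co-expressed members had a called difference.

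Branched-chain amino acid breakdown held more genes that fell in both tissues than any other of the 17 lists, and the size of the fall differed between tissues for some of them. Of 22 co-expressed members, 12 fell in liver and 11 in quadriceps, 10 of them in both, and none rose in either. Over all genes fitted, 3.45% fell in liver, 2.37% in quadriceps and 0.556% in both. A difference was called for 18.2% of members, against 3.98% of all genes fitted. The list's median difference was 0.08, against 0.07 for all genes fitted. The called difference had one sign in 2 members and the other sign in 2 others.

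Bckdhb and Aldh6a1 fell further in quadriceps. Bckdhb encodes a subunit of the decarboxylase of the branched-chain ketoacid dehydrogenase complex, the committed step of the pathway. Its signals were 1090, 1420, 1200 and 1170 in wild-type and 469, 496, 457 and 583 in null liver, and 403, 451, 390 and 430 in wild-type and 85.6, 116, 70.3 and 106 in null quadriceps. The null level was therefore below every wild-type array in both tissues. The effects of -1.26 and -1.99 differed by 0.74 (SE 0.18, adjusted p = 0.0289), a call that was lost in 6 of 31 other settings. Aldh6a1, the dehydrogenase that disposes of methylmalonate semialdehyde from valine, had signals of 2330, 1990, 2290 and 2140 against 938, 1080, 802 and 805 in liver and of 731, 904, 735 and 991 against 134, 126, 214 and 192 in quadriceps. Its effects were -1.26 and -2.25 (difference 0.99, SE 0.21, adjusted p = 0.0121). Dbt, the transacylase subunit of the same complex as Bckdhb, fell by 1.29 in liver and by 1.78 in quadriceps, with a difference of 0.48 (SE 0.21, adjusted p = 0.214) that did not pass.

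Ivd and Pcca lay on the other side. Ivd encodes isovaleryl-CoA dehydrogenase of leucine breakdown. Its signals were 476, 529, 645 and 532 in wild-type and 102, 90, 102 and 102 in null liver, and 479, 471, 556 and 470 in wild-type and 224, 362, 201 and 232 in null quadriceps. Null arrays lay below wild-type arrays in both tissues, by more in liver. The effects of -2.28 and -0.94 differed by -1.33 (SE 0.20, adjusted p = 0.000758), and a second probe set gave -1.21. Pcca, a subunit of propionyl-CoA carboxylase, fell in liver (600 to 672 against 297 to 380, effect -0.89) and was at -0.28 in quadriceps (439 to 508 against 355 to 403, adjusted p = 0.11), a difference of -0.61 (SE 0.13, adjusted p = 0.0124) that was lost with median scaling. The remaining 18 members, among them Hibadh, Hsd17b10, Acadsb and Mmut, which fell in both tissues, had no called difference.

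**Figure D2:**
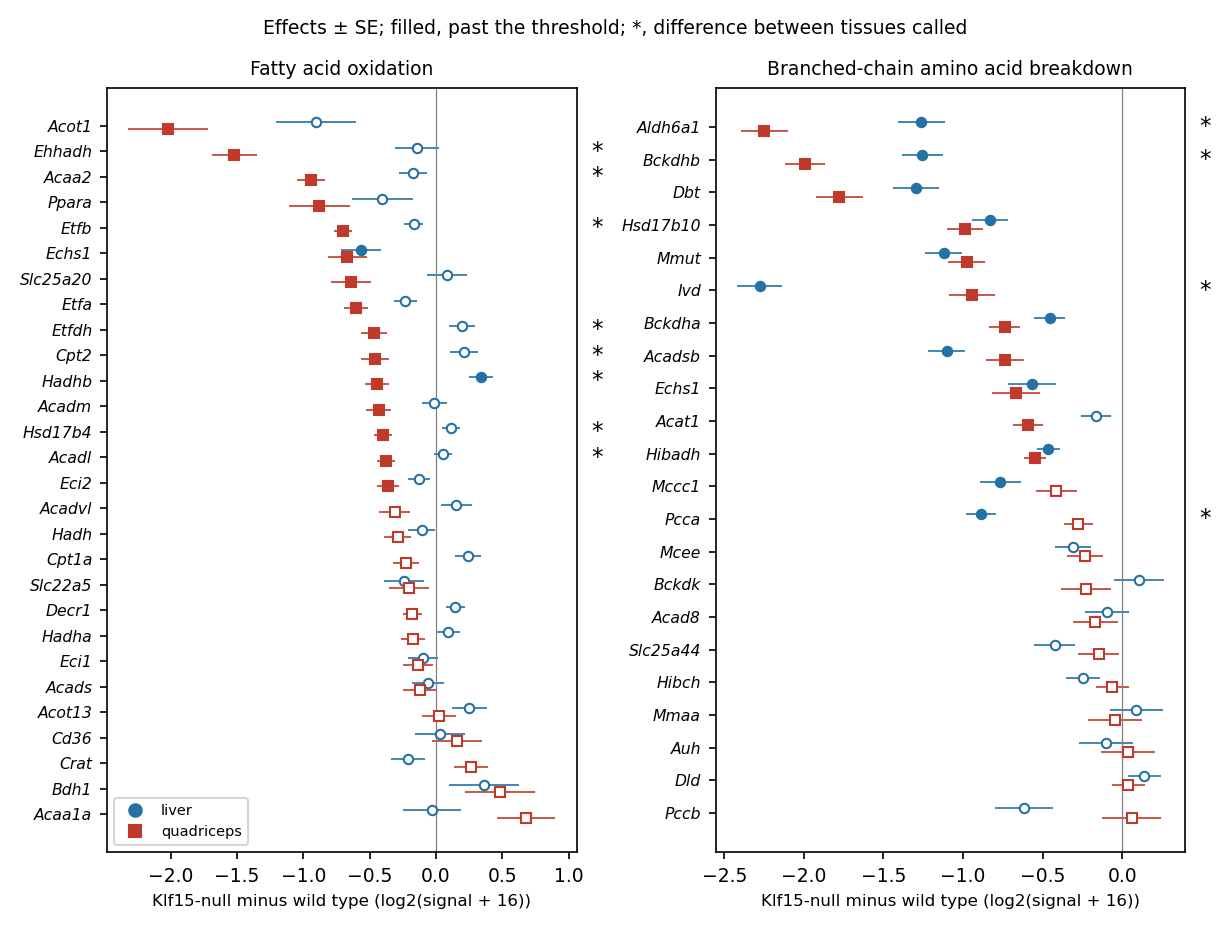
Effects of Klf15 loss (null minus wild type, log2(signal + 16), ± SE) in liver (blue circles) and quadriceps (red squares) for the co-expressed members of 2 lists, with filled symbols past the threshold and asterisks where the difference between tissues was called. In the fatty acid oxidation list 15 of 28 members fell in quadriceps and 1 in liver, and in the branched-chain list 11 and 12 of 22. Over all genes fitted, 2.37% fell in quadriceps and 3.45% in liver.

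Other amino acid genes differed between tissues in both directions. In the other amino acid breakdown list 22.2% of co-expressed members had a called difference, against 3.98% of all genes fitted. Of 18 co-expressed members of the other amino acid breakdown list, 8 fell in liver and 8 in quadriceps, 1 (Got1) rose in liver, and 2 had a called difference in each direction, of which 1 in each was left with median scaling. Gstz1, the maleylacetoacetate isomerase of tyrosine breakdown, had signals of 2300, 2410, 2550 and 2350 in wild-type and 963, 1060, 891 and 956 in null liver, and of 105, 94.2, 107 and 104 against 83.8, 97.8, 102 and 81.1 in quadriceps. It thus fell by 1.30 in liver, without overlap, and was at -0.15 in quadriceps, where groups overlapped (difference -1.15, SE 0.13, adjusted p = 6.28e-05). Aldh7a1, of lysine breakdown, fell in both and further in liver (-1.61 and -0.83, difference -0.78, adjusted p = 0.00863). Cth, which makes cysteine from cystathionine, had the opposite sign of difference (1.21, SE 0.24, adjusted p = 0.00826): its quadriceps signal went from 40.2, 39, 80.7 and 53.8 to 0.917, 1.27, 0.781 and 1.02, while its liver signal, 3660 to 5400 in wild type, fell to 2160 to 3400. Oat, ornithine aminotransferase, fell by 0.42 in quadriceps and was at 0.06 in liver (difference 0.48, adjusted p = 0.0227). The call of Oat was lost in 6 of 31 other settings.

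Slc38a3, a system N amino acid transporter that carries glutamine into hepatocytes, fell in liver and passed no test in quadriceps. Signals were 2650, 3390, 3120 and 3480 in wild-type and 703, 873, 950 and 1070 in null liver, and 279, 293, 363 and 368 in wild-type and 299, 342, 184 and 330 in null quadriceps. Liver groups were far apart and quadriceps groups overlapped. The effects of -1.80 and -0.19 differed by -1.61 (SE 0.23, adjusted p = 0.000484).

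Only 2 genes of the urea cycle list, which is largely a liver pathway, were co-expressed, and both had a positive difference. Asl, which splits argininosuccinate into arginine and fumarate, rose in liver from 2090, 2750, 2360 and 2220 to 4030, 3930, 4650 and 3580. In quadriceps it fell from 45.4, 49.4, 52.6 and 48.9 to 24.1, 29.1, 5.92 and 34.7. The groups did not overlap in either tissue and the effects of 0.78 and -0.79 differed by 1.57 (SE 0.26, adjusted p = 0.00188). Slc25a15, the mitochondrial ornithine carrier, was at 0.43 in liver and -0.36 in quadriceps, neither past the threshold, although its liver groups did not overlap. Its difference of 0.79 (adjusted p = 0.0388) was lost in 19 of 31 other settings. Hepatocyte markers summed to 245 to 353 on wild-type and 174 to 288 on null quadriceps arrays, ranges that overlap, with 6 of the 9 at means under 25. Of the 9 markers, 1 passed the threshold as lower in null quadriceps and 0 as higher. The part of hepatocyte RNA in the quadriceps values of liver-rich genes such as Asl, Cth and Ehhadh was not tested.

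Genes of fatty acid oxidation fell in quadriceps and mostly held no call in liver. Of 28 co-expressed members, 15 fell in quadriceps and none rose, while in liver Echs1 fell and Hadhb rose. Over all genes fitted, 2.37% fell in quadriceps. A difference was called for 28.6% of members, against 3.98% of all genes fitted. The difference was positive for 8 (Cpt2, Acadl, Hadhb, Acaa2, Etfb, Etfdh, Ehhadh and Hsd17b4) and negative for none, and the list's median difference was 0.40, against 0.07 for all genes fitted. Without null quadriceps 8, 12 were positive and 1 negative, with 16 lower in quadriceps (backgrounds 6.51%, 3.75% and 9.76%). With median scaling the list's median was 0.41, but 1 member had a called difference and 6 fell in quadriceps. The lower adipocyte markers of null quadriceps moved with these falls, and their part in them was not tested.

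Ehhadh, the bifunctional enzyme of peroxisomal beta-oxidation, showed the widest difference of the list. Its liver signals were 4820, 4210, 4700 and 3770 in wild-type and 4460, 3840, 3650 and 3880 in null samples, which overlap. Its quadriceps signals were 108, 108, 155 and 88 against 14.3, 33.3, 33.4 and 39.4, with no overlap. The effects of -0.14 and -1.52 differed by 1.38 (SE 0.24, adjusted p = 0.0025). Acaa2, the mitochondrial 3-ketoacyl-CoA thiolase, fell in quadriceps from 1180, 1310, 1470 and 1380 to 648, 708, 549 and 880 (-0.94) and was at -0.17 in liver (difference 0.77, SE 0.15, adjusted p = 0.00678). Of its 2 further probe sets one gave a difference of 0.75 and the other -0.01, so its call rests on which probe set is read.

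Etfb, a subunit of the flavoprotein that passes electrons from acyl-CoA dehydrogenases to the respiratory chain, had liver signals of 3370, 3430, 3400 and 3360 against 2980, 2990, 3110 and 2990, and quadriceps signals of 1670, 1870, 1790 and 1890 against 1190, 1120, 967 and 1140. Null arrays were lower in both tissues, without overlap. The liver effect of -0.17 did not pass on the spread shared with quadriceps (adjusted p = 0.19). The quadriceps effect of -0.70 did, with a difference of 0.53 (SE 0.10, adjusted p = 0.0047). Hsd17b4, the other peroxisomal bifunctional enzyme, fell by 0.40 in quadriceps (732 to 830 against 567 to 608) and was at 0.11 in liver (difference 0.51, SE 0.09, adjusted p = 0.00476).

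Hadhb, the thiolase subunit of the mitochondrial trifunctional protein, was one of 5 co-expressed genes that moved in opposite directions past the threshold in both tissues. Its liver signals rose from 3070, 3230, 3170 and 2820 to 3790, 3890, 4060 and 3790. Its quadriceps signals fell from 3640, 4340, 3970 and 4080 to 2840, 3370, 2400 and 3260. No groups overlapped, and the effects of 0.34 and -0.44 differed by 0.78 (SE 0.13, adjusted p = 0.00149), with 0.48 by a second probe set. Asl, As3mt, Uso1 and Anxa6 were the other 4, and in all 5 it was liver that rose and quadriceps that fell.

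As3mt, an arsenite methyltransferase, rose in liver from 200, 228, 197 and 163 to 365, 294, 357 and 372 and fell in quadriceps from 155, 179, 171 and 165 to 86, 89.4, 119 and 130. Groups did not overlap in either tissue (difference 1.37, SE 0.19, adjusted p = 0.000296). Uso1, a vesicle tethering factor of the Golgi, was at 0.41 and -0.40 (difference 0.81, adjusted p = 0.00421), and Anxa6, a calcium-dependent membrane-binding protein, at 0.32 and -0.43 (difference 0.76, adjusted p = 0.00308). No gene rose in quadriceps and fell in liver with both effects past the threshold when all arrays were used, and 6 did without null quadriceps 8.

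**Figure D3:**
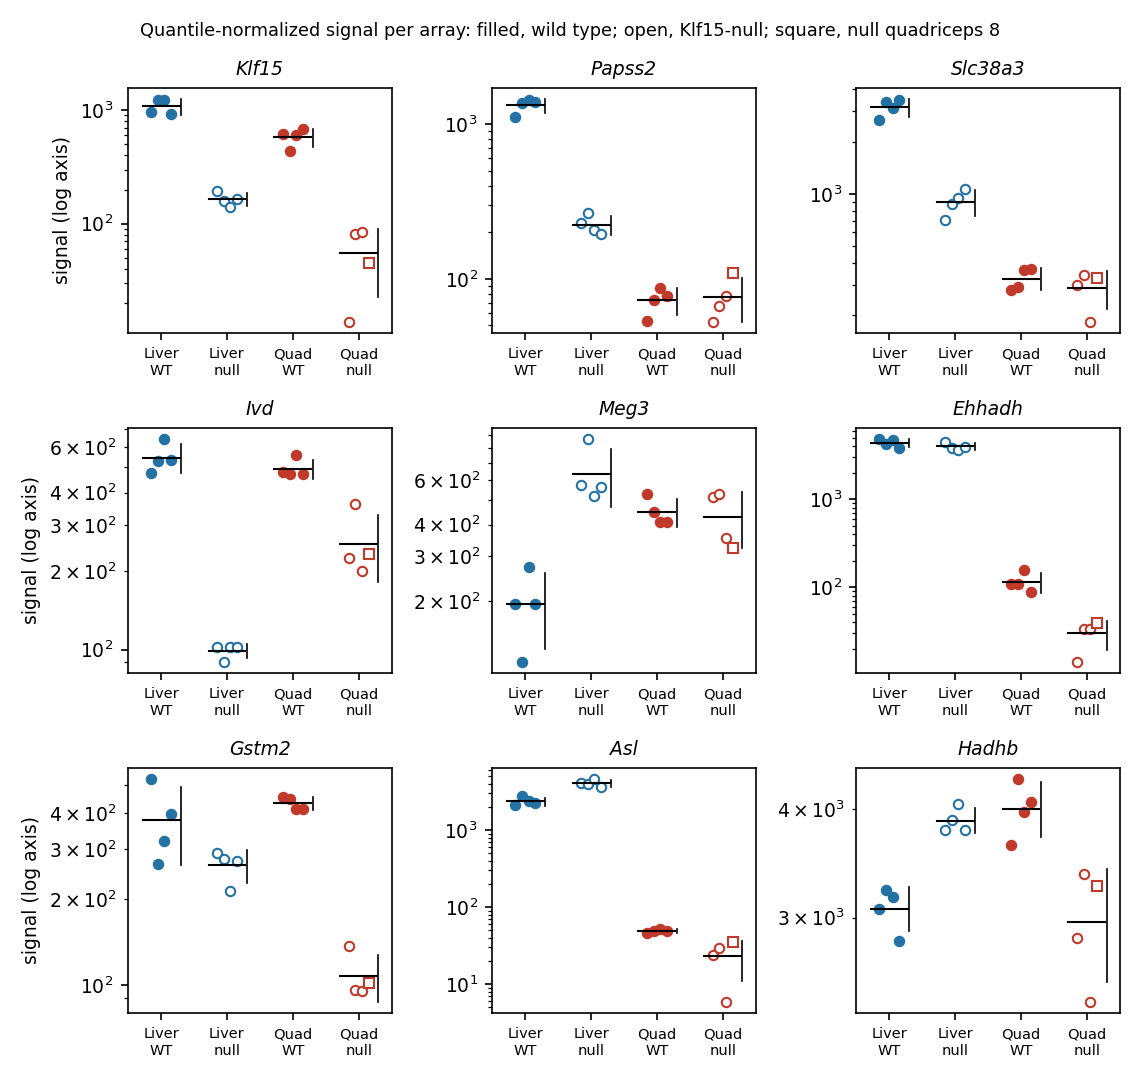
Quantile-normalized signal on each of the 16 arrays, on log axes that differ between panels, for 9 genes, with the line at the mean and the bar at ± 1 SD (n = 4). Klf15 fell in both tissues, Papss2 and Slc38a3 fell in null liver, Ivd fell in both and further in null liver, Meg3 rose in null liver, Ehhadh and Gstm2 fell in null quadriceps, and Asl and Hadhb moved in opposite directions. The square marks null quadriceps 8.

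Central carbon metabolism held called differences of both signs. In the citric acid cycle and pyruvate list 25% of co-expressed members were called, against 3.98% of all genes fitted. Over all genes fitted, 2.68% rose and 3.45% fell in liver. Of 28 co-expressed members of the citric acid cycle and pyruvate list, 6 rose and 7 fell in liver and 1 fell in quadriceps, and the difference was positive for 5 (Ogdh, Dlst, Sucla2, Fh1 and Mdh2) and negative for 2 (Pdk1 and Me1). With median scaling 0 positive and 2 negative calls were left, and the second probe set of Dlst gave -0.57 where the first gave 0.64. Mdh2, mitochondrial malate dehydrogenase, rose in liver from 1500, 1650, 1480 and 1380 to 2800, 2550, 3180 and 2570, while quadriceps held 5690, 6150, 5820 and 6170 in wild-type and 6180, 5740, 5680 and 6340 in null samples. Null liver was above every wild-type liver array and quadriceps groups overlapped (difference 0.87, SE 0.11, adjusted p = 0.000139). Fh1, the fumarate hydratase of the cycle, rose by 0.59 in liver and was at -0.28 in quadriceps (difference 0.86, SE 0.12, adjusted p = 0.000402).

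Pdk1, a kinase that switches off pyruvate dehydrogenase, moved the other way. It fell in liver from 417, 398, 475 and 503 to 161, 192, 88.2 and 158, and in quadriceps its signals of 116, 134, 85 and 128 in wild-type and 137, 97.5, 93 and 87.4 in null samples overlapped (effects -1.53 and -0.14, difference -1.39, SE 0.27, adjusted p = 0.00619). Me1, the cytosolic malic enzyme that supplies NADPH for lipid synthesis, fell in liver from 1210, 972, 1080 and 988 to 553, 445, 556 and 585. In quadriceps it was at 0.39 (adjusted p = 0.12), with overlapping groups, and the difference was -1.36 (SE 0.19, adjusted p = 0.000402). Second probe sets gave differences of -1.13 for Pdk1 and -1.11 for Me1.

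Among 60 co-expressed members of the respiratory chain and ATP synthase list, the difference was positive for 5 (Uqcrc2, Cyc1, Cox6b1, Cox7a2 and Atp5c1) and negative for none, and 10 rose in liver and 2 in quadriceps. The called differences were small, from 0.36 for Atp5c1 to 0.51 for Uqcrc2, and the list's median of 0.14 lay near that of all genes. The second probe set of Uqcrc2 gave a difference of -0.0016. The called share of 8.33% stood against 3.98% of all genes fitted. With median scaling none of the 60 had a called difference. Of 15 co-expressed members of the glycolysis list, 4 (Aldoa, Tpi1, Pgam1 and Ldha) rose in liver and had a positive difference, between 0.41 and 0.78, and 2 fell in liver. The called share of that list was 26.7%, and in quadriceps no member of it passed the threshold. Of these 4, Pgam1 lost its call in 21 of 31 other settings, Tpi1 and Ldha in 19 each and Aldoa in 9, median scaling left none of the 4, and the 3 other probe sets of Aldoa gave differences of 0.34, 0.20 and 0.021.

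In the list of fatty acid and cholesterol synthesis, 7 of 25 co-expressed members fell and 2 rose in liver, and 3 fell in quadriceps. A difference was called for 16% of them, against 3.98% of all genes fitted. Srebf1, the transcription factor that drives lipogenic genes, fell in liver from 240, 314, 236 and 334 to 120, 127, 114 and 129 and did not pass in quadriceps (adjusted p = 0.997), where wild-type samples held 174, 245, 185 and 172 and null samples 202, 225, 189 and 157. Liver groups were apart and quadriceps groups overlapped, a difference of -1.08 (SE 0.20, adjusted p = 0.0047). Acacb, the acetyl-CoA carboxylase that makes the malonyl-CoA that restrains mitochondrial fatty acid import, rose in liver from 62.7, 72.5, 65.8 and 61.2 to 122, 111, 160 and 126 and lay between 1180 and 1480 in all quadriceps samples (difference 0.82, SE 0.16, adjusted p = 0.00678). Gpam, the first acyltransferase of glycerolipid synthesis, fell by 0.75 in quadriceps and was at 0.16 in liver (difference 0.91, adjusted p = 0.017), but the mean of its probe sets gave -0.24. The adipocyte marker sum moved with the quadriceps fall of Gpam, and its part was not tested.

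The widest difference of all members was in Papss2, which makes PAPS, the sulfate donor of sulfotransferases. Its signals were 1110, 1360, 1420 and 1380 in wild-type and 229, 265, 206 and 195 in null liver, and 53.7, 73.2, 87.8 and 77.5 in wild-type and 53, 67, 77.9 and 109 in null quadriceps. Every null liver array was far below every wild-type one and the quadriceps groups overlapped. The effects of -2.47 (SE 0.17) and 0.04 (SE 0.17) differed by -2.51 (SE 0.23, adjusted p = 4.01e-06).

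The glutathione and detoxification list held calls of both signs, with 5 positive and 6 negative differences among 31 co-expressed members (35.5% called, against 3.98% of all genes fitted) and a median difference of 0.02. With median scaling 2 positive and 2 negative calls were left. In all, 8 members fell in liver and 9 in quadriceps. On the positive side, Gstm2, a glutathione transferase, fell in quadriceps from 455, 450, 412 and 414 to 137, 96.1, 95.2 and 102. In liver it held 528, 265, 319 and 398 against 290, 276, 213 and 272, which overlap, and the difference was 1.41 (SE 0.23, adjusted p = 0.00179). On the negative side, Gsta4, a transferase that conjugates 4-hydroxynonenal, fell in liver from 534, 411, 509 and 383 to 119, 79.5, 55.3 and 67.9 and in quadriceps from 120, 111, 131 and 92.1 to 57.2, 62.1, 42 and 80, with no overlap in either tissue (effects -2.33 and -0.78, difference -1.55, SE 0.26, adjusted p = 0.00248).

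Gstk1, the mitochondrial and peroxisomal kappa-class transferase, also fell in both, with effects of -2.50 in liver and -1.83 in quadriceps, and its difference of -0.67 (adjusted p = 0.0391) was lost in 16 of 31 other settings. Mgst3, a microsomal transferase, rose in quadriceps from 740, 657, 885 and 1060 to 2590, 2020, 1970 and 847, where null sample 8 lay among the wild-type values, and was at -0.46 in liver (difference -1.52, SE 0.35, adjusted p = 0.0216, and -1.81 without null quadriceps 8). Gstp1 rose in liver from 3590, 3560, 2900 and 3640 to 5510, 4740, 6790 and 5750 and held 4410 to 4630 against 4190 to 4380 in quadriceps (difference 0.80, SE 0.13, adjusted p = 0.00117). Related transferases can take signal from one another on such probe sets, which leaves the values of single members uncertain.

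Aldh2, mitochondrial aldehyde dehydrogenase, had the smallest adjusted p of the list, but its probe sets disagreed. The brightest probe set fell in quadriceps from 1220, 1060, 1070 and 987 to 260, 298, 257 and 324 and in liver from 7190, 7160, 6890 and 7020 to 5950, 5590, 5730 and 5240 (effects -1.87 and -0.33, difference 1.54, SE 0.12, adjusted p = 6.03e-07). Its 2 other probe sets gave quadriceps effects of 0.64 and 0.19 and differences of -0.97 and -0.67, and the mean of all 3 probe sets gave -0.03. A direction for Aldh2 as a gene is therefore not given.

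Of 23 co-expressed glucocorticoid-induced genes, 3 had a negative difference and none a positive one, 4 fell in liver and 1 rose in quadriceps. The called share was 13%, against 3.98% of all genes fitted. With median scaling no member had a called difference and the list's median went from -0.22 to -0.06. Taken relative to the median of all genes fitted, it went from -0.29 to -0.23. Foxo1, the forkhead factor that insulin signalling keeps out of the nucleus, rose in quadriceps from 303, 202, 350 and 198 to 426, 450, 762 and 520, without overlap, and was at -0.43 in liver, where 332, 454, 291 and 385 overlapped with 324, 296, 205 and 246. The difference of -1.42 (SE 0.29, adjusted p = 0.00854) had the same sign in its 2 other probe sets (-1.35 and -1.24). Tsc22d3, the glucocorticoid-induced leucine zipper gene, fell in liver from 1120, 1240, 1310 and 953 to 547, 863, 347 and 621 and was at 0.12 in quadriceps. Cebpb, a bZIP factor of the hepatic fasting response, fell by 0.95 in liver and was at 0.34 in quadriceps. The differences of Tsc22d3 (-1.12, adjusted p = 0.0323) and Cebpb (-1.28, adjusted p = 0.0325) were each lost in 15 of 31 other settings, and the 2 other probe sets of Tsc22d3 gave -1.73 and -0.0086. None of the 14 co-expressed circadian genes had a called difference, although Per1, Tef and Bhlhe40 fell in liver.

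The remaining wide differences were in genes of varied function. Meg3, an imprinted long noncoding RNA, rose in liver from 195, 116, 274 and 195 to 574, 870, 519 and 560, whereas quadriceps samples held 409 to 528 in wild type and 325 to 528 in null animals. Liver groups were apart and quadriceps groups overlapped (difference 1.73, SE 0.30, adjusted p = 0.00264), and its 2 further probe sets gave 1.30 and 1.20. Tubb2a, a beta-tubulin, gave the largest positive difference (1.97, SE 0.37, adjusted p = 0.00555): its liver signals rose from 637, 373, 360 and 250 to 1140, 743, 1410 and 1220 and its quadriceps signals of 57.7 to 108 and 31.7 to 80.7 overlapped. Tomm40l, related to a channel of the outer mitochondrial membrane, rose in liver from 48.7 to 67.1 in wild type to 149 to 183 in null samples and overlapped in quadriceps (difference 1.33, SE 0.18, adjusted p = 0.000259).

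Parp2, a DNA damage-responsive polymerase, fell in quadriceps from 87.2 to 108 in wild type to 30.7 to 61.7. In liver its effect of 0.53 did not pass (adjusted p = 0.066), although null arrays (97.4 to 137) lay above wild-type ones (63.3 to 89.2). The difference was 1.44 (SE 0.23, adjusted p = 0.00162). Tango2 fell in quadriceps from 298, 305, 359 and 435 to 104, 149, 136 and 140 and overlapped in liver (difference 1.35, SE 0.19, adjusted p = 0.000402). Tpst1, a protein-tyrosine sulfotransferase, rose by 0.84 in liver and was at -0.46 in quadriceps (difference 1.30). Poglut2, a protein glucosyltransferase, passed in neither tissue alone (0.63 and -0.71, difference 1.33), although its liver groups did not overlap.

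Among negative differences, Hspb1, a small heat shock protein, fell in liver from 499, 646, 612 and 311 to 105, 132, 305 and 173 and held 2660 to 4080 in all quadriceps samples (difference -1.60, SE 0.35, adjusted p = 0.0133). Cotl1, an actin-binding protein, fell by 1.40 in liver and was at 0.30 in quadriceps (difference -1.70), but its second probe set gave a liver effect of -0.089 and a difference of -0.058. Emp2, a membrane protein, fell by 1.29 and was at 0.20 (difference -1.49), and Tmem134 fell by 1.14 and was at 0.24 (difference -1.38). Inmt, an indolethylamine methyltransferase, passed in neither tissue alone: liver held 2500, 2850, 3000 and 1890 against 1350, 2850, 751 and 816, and quadriceps 307, 214, 405 and 442 against 432, 628, 766 and 591. Groups overlapped in both tissues, and its difference of -1.83 (SE 0.45, adjusted p = 0.0285) was lost in 10 of 31 other settings.

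**Figure D4:**
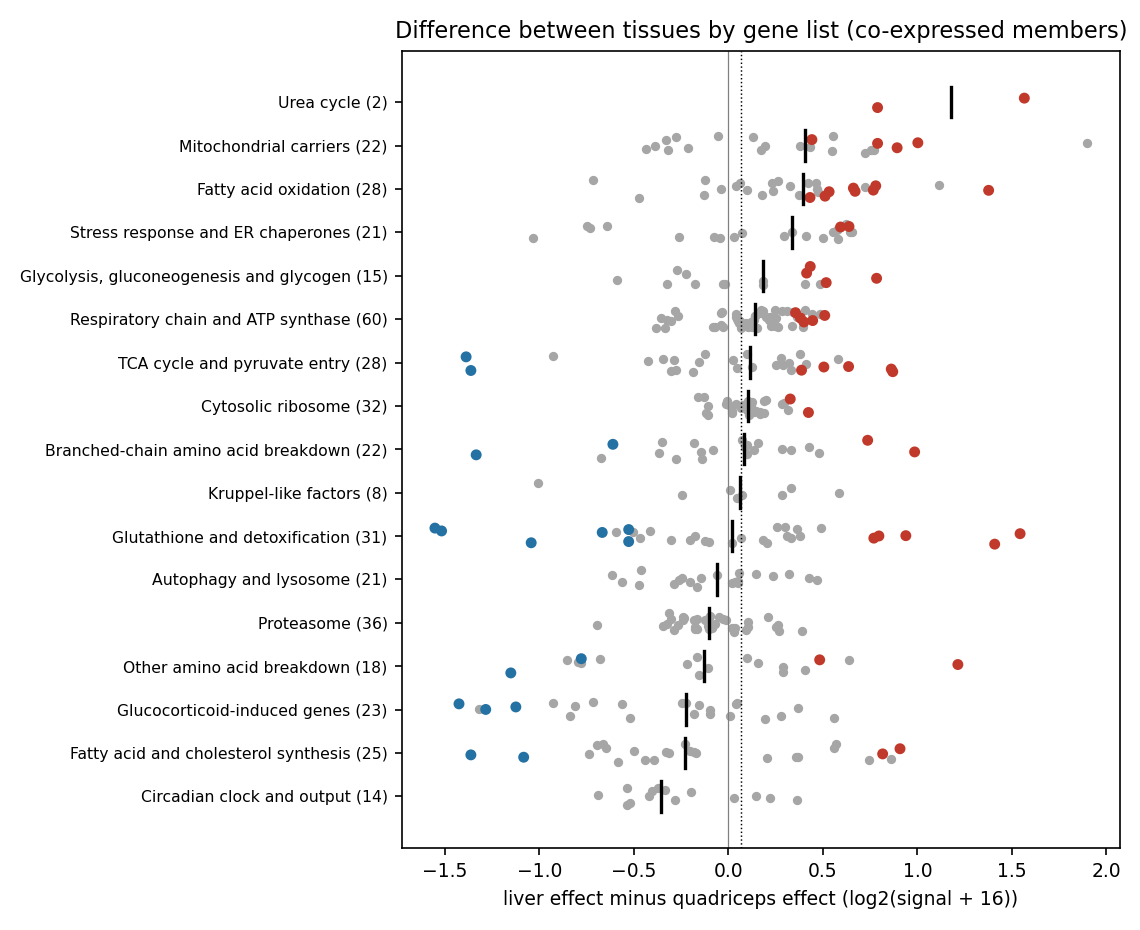
Difference between tissues (liver effect minus quadriceps effect, log2(signal + 16)) for each co-expressed member of 17 gene lists, with the number of members in brackets, called members in red (positive) or blue (negative), list medians as black bars and the median of all genes fitted (0.07) as a dotted line. Fatty acid oxidation had a median of 0.40 with 8 positive calls, and the glutathione and detoxification list had calls on both sides of 0.

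Lists of general cell function are given beside the share of 3.98% called over all genes fitted. None of 36 proteasome and none of 21 autophagy and lysosome genes had a called difference, but at that share lists of this size would hold few calls. Of 32 cytosolic ribosome genes 2 (6.25%, Rps18 and Rpl13a) and of 21 stress response genes 2 (9.52%, Cebpg and Calr) had a positive difference. With median scaling neither list had one. Rpl13a lost its call in 22 of 31 other settings, Calr in 17, Cebpg in 16 and Rps18 in 5, and the 3 other probe sets of Rpl13a gave differences of 0.80, 0.20 and 0.0011. Of 22 co-expressed mitochondrial carriers, 4 (18.2%, Slc25a3, Slc25a15, Slc25a26 and Slc25a47) had a positive difference, and 2 did with median scaling. Slc25a26 lost its call in 20 of 31 other settings and Slc25a47 in 12. The list's median of 0.40 was as high as that of fatty acid oxidation. Backgrounds for the counts that follow were 6.51% positive and 3.75% negative of all genes fitted. Without null quadriceps 8, positive and negative counts were 9 and 0 for the carriers, 11 and 5 for the respiratory chain, 6 and 0 for the stress response, 0 and 3 for the proteasome and 1 and 2 for autophagy and lysosome. On those arrays they were 2 and 3 for branched-chain and 3 and 4 for other amino acid breakdown, 7 and 2 for the citric acid cycle, 5 and 0 for glycolysis, 3 and 4 for lipid synthesis, 0 and 4 for glucocorticoid-induced genes, 6 and 6 for detoxification, 2 and 0 for the ribosome and for the urea cycle, and 0 for the circadian and Kruppel-like factor lists.

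Second probe sets of the same genes, which were not used to choose them, share the RNA and are no replicates. Of 129 such probe sets of 79 called genes, 111 (86.0%) had a difference of the same sign, against 63.5% of 2564 over all co-expressed genes. For 64 of the 79 genes every second probe set had the same sign. Sizes were smaller: 51 of the 129 had the same sign and at least 0.5 log2. Over called genes the median difference was 0.71 on the first probe set and 0.40, in its direction, on the second. Over all co-expressed genes these medians were 0.22 and 0.11. Across the 5507 genes the liver and quadriceps effects correlated with a Pearson r of 0.25 and a Spearman rho of 0.11, as a description over genes that share arrays. Over the 536 genes past the threshold in either tissue the values were 0.43 and 0.33. Those genes were chosen by the same effects that are correlated, so nothing is read from the higher values.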

How the data were processed

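Each array was deposited as linear intensity values, 1 for every probe set, which the authors obtained with GCOS according to the submitters' processing notes. Version, summary method and scaling of that software are not known here. Station and scan day came from each array's experiment record and served only as batch labels. Of 22690 probe sets, 20380 were paired with 1 gene symbol, and each gene was represented by the one brightest over all 16 arrays.

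Signals were quantile normalized within each tissue and transformed as log2(signal + 16). Genes entered the fit when their mean lay at or above the 40th percentile of probe sets in at least 1 tissue (25.1 in liver, 24.3 in quadriceps), which kept 8985 genes and all 5507 members. One mean per group was fitted over 16 arrays with limma 3.58.1 in R 4.3.3 (lmFit, eBayes with a variance trend, 12 residual degrees of freedom), and p-values were adjusted by Benjamini-Hochberg. The number of arrays limits the precision, and no detection calls were used. The fit was tested on simulated data.

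Members and gene lists were chosen with earlier results of these data known. The text names Klf15, the 12 largest positive and 12 largest negative differences called with and without null quadriceps 8, up to 4 members per list by smallest p and up to 4 past the threshold in a tissue, up to 10 genes moving in opposite and 10 in the same direction, and the 3 genes on each side of the membership limit. Other list members are named because they passed the threshold, after their values were seen. Alternatives were other pseudocounts, filters, scalings, membership limits, array weights, blocks, probe set means and leaving out each array. Promoters came from RefSeq. Figures were drawn with matplotlib 3.10.9.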

Additional observations from a re-analysis of the deposited data

Results flagged for a closer look

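Of 148 groups of 4 arrays examined, 6 held 1 array far from the other 3. Chance flags about 1 in 20 groups. Null liver 6 had a Meg3 signal of 870, against 519 to 574 on the other null liver arrays. Null quadriceps 5 had 137 for Gstm2, against 95.2 to 102, and 27.0 for Prodh, against 2.93 to 4.60. Null quadriceps 7 had 51.7 for Selenbp1, against 33.5 to 35.4, and null quadriceps 6 had 53.4 for Kyat3, against 32.1 to 35.6. Wild-type quadriceps 1 had 626 for Anxa6, against 740 to 743. None of these was null quadriceps 8, the array whose deposited median stood apart.

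The test of the difference between tissues picked out the following named genes, with values of liver effect minus quadriceps effect on the log2 scale. Positive differences were 1.97 for Tubb2a, 1.73 for Meg3, 1.57 for Asl, 1.54 for Aldh2 (by its brightest probe set only), 1.44 for Parp2, 1.41 for Gstm2, 1.38 for Ehhadh, 1.37 for As3mt, 1.35 for Tango2, 1.33 for Poglut2, 1.33 for Tomm40l, 1.30 for Tpst1, 0.99 for Aldh6a1, 0.81 for Uso1, 0.78 for Hadhb, 0.76 for Anxa6 and 0.74 for Bckdhb. Negative differences were -2.51 for Papss2, -1.83 for Inmt, -1.70 for Cotl1, -1.61 for Slc38a3, -1.60 for Hspb1, -1.55 for Gsta4, -1.52 for Mgst3, -1.49 for Emp2, -1.42 for Foxo1, -1.39 for Pdk1, -1.38 for Tmem134, -1.36 for Me1 and -0.67 for Gstk1.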

How the results depend on the processing

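Of 63 named genes with a called difference, 15 kept direction and call in all 31 other settings, among them Papss2, Slc38a3, Meg3, Asl, Ehhadh and As3mt, and 48 lost the call or turned in at least 1. The counts of positive and negative differences (158 and 71) were 76 and 16 with median scaling, 95 and 42 without a variance trend, 324 and 145 with array weights, and 476 and 222 with scan day as a block, which amounts to leaving out null quadriceps 8. The negative count was 46 with a pseudocount of 1 and 2 with no normalization. The 362 liver calls became 164 with median scaling, 81 with none and 719 with array weights. The 230 quadriceps calls became 1758 with no normalization, 372 with array weights and 1008 with the scan day block, which gave 94 shared falls. Fatty acid oxidation kept 1 of 8 positive calls with median scaling. Median scaling without null quadriceps 8, chosen after seeing the data, gave 1244 positive differences, 2345 quadriceps calls, 127 shared falls and 16 fatty acid oxidation calls. The causes of these shifts were not tested.

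Leaving out each array in turn gave 94 to 474 positive and 43 to 219 negative differences, 236 to 508 liver calls, 117 to 1008 quadriceps calls, 40 to 92 shared falls and 8 to 12 fatty acid oxidation calls. Differences that reversed were Aldh2 (-0.032) and Gpam (-0.24) with the mean of probe sets, Adhfe1 (0.26) and Prodh (0.56) with a pseudocount of 1, Selenbp1 (-0.068) with 64, and, with no normalization, Rora (0.19), Bhlhe40 (0.38), Klf13 (0.28), Psmb4 (0.15), Psmc1 (0.27), Psmd8 (0.23), Slc25a51 (0.26) and Kyat3 (0.039). With median scaling without null quadriceps 8, Rora (0.054), Klf13 (0.19), Psmc1 (0.020) and Slc25a51 (0.079) reversed. Apart from Aldh2 and Gpam, these were uncalled.

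Wild-type numbers 1 to 4 and null numbers 5 to 8 recur in both tissues, and whether they mark the same animals is not known. The 8 same-numbered pairs correlated in their deviations from -0.12 to 0.06. Such low values cannot show that the animals differed, since deviations between arrays also hold technical noise. The numbers were not treated as pairs in the main fit. In both tissues they also followed the module of the fluidics station, so a replicate block cannot be told apart from a module block. With the replicate block, 80 positive and 46 negative differences were called, and 233 and 127 with the replicate block without null quadriceps 8, chosen after seeing the data. Blocked tissue effects could not be estimated. Dim genes are compressed by the pseudocount, which limits what null signals under 25 can show.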
